A study of Mus musculus with 18 samples.

Results

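The genes described here are 49 genes of skeletal muscle, measured in 4T1 mammary tumors by bulk RNA sequencing. They are the rows of the count tables whose Entrez Gene identifiers map to 49 fixed symbols, out of 22792 genes in all, and each of the 49 was found in the tables. They were picked because their levels stood high in tumors treated with a PI3K inhibitor, so every comparison with those tumors is given as a description with no test. 4T1 cells are an established mouse mammary carcinoma line that lacks the hormone receptors. In the study, 300000 cells were injected into the mammary fat pad of female Balb/c mice of 8 weeks, the mice were dosed from day 7, and tumors were taken on day 21, 1 from each mouse. The Vehicle group (5 tumors) received the carrier alone, PI3Ki (4 tumors) the PI3K inhibitor CLR457, SHP2i (4 tumors) the SHP2 inhibitor SHP099 and Combo (5 tumors) both compounds. Every tumor grew from the same cell line in an immunocompetent host of the same strain, so all 18 hold carcinoma cells together with whatever mouse tissue was cut out with them. Levels are given in CPM, a gene's count divided by the total of its library and multiplied by 1000000, after scaling of the totals by the trimmed mean of M values (TMM).

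A skeletal muscle fiber contracts when myosin heads of the thick filament pull on actin of the thin filament. Calcium released from the sarcoplasmic reticulum starts the pull by binding troponin, and a pump returns the calcium to its store. Fast fibers and slow fibers use different genes for many of these parts, among them the myosin heavy chains, the 3 subunits of troponin, myosin-binding protein C, calsequestrin and myozenin. Striated muscle is no part of a mammary carcinoma, but a thin muscle sheet of the skin and the muscles of the body wall lie next to the mammary fat pad.

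Each library held 21.16 to 26.62 M counts (median 23.52 M). As a check of the labelled tissue, Krt8, a keratin of simple epithelia and their carcinomas, was at 336 to 711 CPM over the 18 tumors. Of the 49 muscle genes, 45 had enough counts to be tested, and Myh7, Myoz2, Casq2 and Sln did not. Without the PI3Ki tumors only 29 would have passed that filter, so 16 were testable only through the group in which they were high. In bulk RNA a larger share of muscle tissue and more RNA per muscle fiber cannot be told apart.

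The promoters of a few of these genes show the sequences that muscle transcription factors are known to read, and they are printed because members with unlike patterns (fast Myh4 and Myh1, slow Tnni1, and the general fiber genes Acta1 and Ckm) lie side by side below. Each is the stretch of 250 bases upstream of a start site, from RefSeq on GRCm38.p6, written 5′ to 3′ on the strand of the gene. Capitals mark, on either strand, the E-box CANNTG bound by factors such as MyoD, the MCAT box CATTCC bound by TEAD factors, the MEF2 box and the CArG box of serum response factor.
Myh4, fast heavy chain, chr11:67237562-67237811, plus strand: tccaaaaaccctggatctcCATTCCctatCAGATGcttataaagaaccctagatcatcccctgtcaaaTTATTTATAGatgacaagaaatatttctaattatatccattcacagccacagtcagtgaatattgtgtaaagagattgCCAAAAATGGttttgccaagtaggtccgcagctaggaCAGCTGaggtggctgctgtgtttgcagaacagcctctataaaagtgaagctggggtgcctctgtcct
Myh1, fast heavy chain, chr11:67199852-67200101, plus strand: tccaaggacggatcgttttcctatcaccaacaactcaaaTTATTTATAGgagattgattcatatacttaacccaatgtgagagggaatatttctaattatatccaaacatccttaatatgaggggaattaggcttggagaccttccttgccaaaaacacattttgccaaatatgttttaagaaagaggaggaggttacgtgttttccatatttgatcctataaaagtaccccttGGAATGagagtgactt
Acta1, skeletal actin, chr8:123894776-123895025, minus strand: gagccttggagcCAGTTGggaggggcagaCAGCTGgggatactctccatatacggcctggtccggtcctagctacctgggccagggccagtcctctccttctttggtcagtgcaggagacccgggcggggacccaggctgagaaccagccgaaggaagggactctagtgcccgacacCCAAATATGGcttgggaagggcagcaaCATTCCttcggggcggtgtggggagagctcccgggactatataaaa
Ckm, muscle creatine kinase, chr7:19410844-19411093, plus strand: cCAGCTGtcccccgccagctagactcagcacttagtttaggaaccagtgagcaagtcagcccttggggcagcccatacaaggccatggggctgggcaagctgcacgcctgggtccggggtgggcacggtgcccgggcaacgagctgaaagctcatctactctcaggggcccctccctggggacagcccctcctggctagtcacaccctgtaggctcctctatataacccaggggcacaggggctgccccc
Tnni1, slow troponin I, chr1:135799171-135799420, plus strand: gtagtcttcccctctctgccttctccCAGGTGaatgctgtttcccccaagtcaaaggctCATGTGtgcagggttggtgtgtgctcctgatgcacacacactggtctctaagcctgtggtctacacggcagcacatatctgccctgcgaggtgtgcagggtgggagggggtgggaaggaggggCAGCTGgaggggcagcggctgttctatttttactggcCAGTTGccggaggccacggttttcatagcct
The promoter table held 42 such stretches for 35 of the 49 genes. An E-box was found in 83.3% of these 42 and in 66.2% of all 32851 promoters of the same length. The form CAGCTG, which is contained in the E-box count, was in 45.2% against 13.0%. The MEF2 box was in 23.8% against 1.7%, the CArG box in 11.9% against 1.5% and the MCAT box in 21.4% against 12.6%. Promoters with and without these motifs occur on both sides of the patterns below: the slow gene Tnni1 and the fast gene Myh4 both hold CAGCTG, and the window of Myh2, a fast heavy chain, holds none of the motifs. A match is a description of letters in this window and was not tested against the levels.

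The summed level of the 49 genes was 2901, 3040, 2748 and 1312 CPM in PI3Ki replicates 1, 2, 3 and 5. It was 128, 150, 265, 136 and 137 CPM in Vehicle replicates 1 to 5. In SHP2i it was 154, 151, 132 and 131 CPM (replicates 2 to 5), and in Combo 139, 229, 155, 142 and 124 CPM. All 4 PI3Ki tumors thus lay above the other 14, and PI3Ki replicate 5 lay below the other 3 by a wide margin. Much of the sum outside PI3Ki came from Eno3, the enolase of muscle, which made up 71.0 to 80.1% of it in SHP2i but 4.49 to 9.18% in PI3Ki. Without Eno3 the sum was 1192 to 2903 CPM in PI3Ki and 22.5 to 175 CPM in the rest. Outside PI3Ki, the 3 highest tumors were then Vehicle replicate 3 at 175 CPM, Combo replicate 2 at 113 CPM and Combo replicate 3 at 69.4 CPM. The other 11 lay between 22.5 and 50.8 CPM, with the lowest values, 22.5 CPM each, in Combo replicates 4 and 5.

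**Figure D1:**
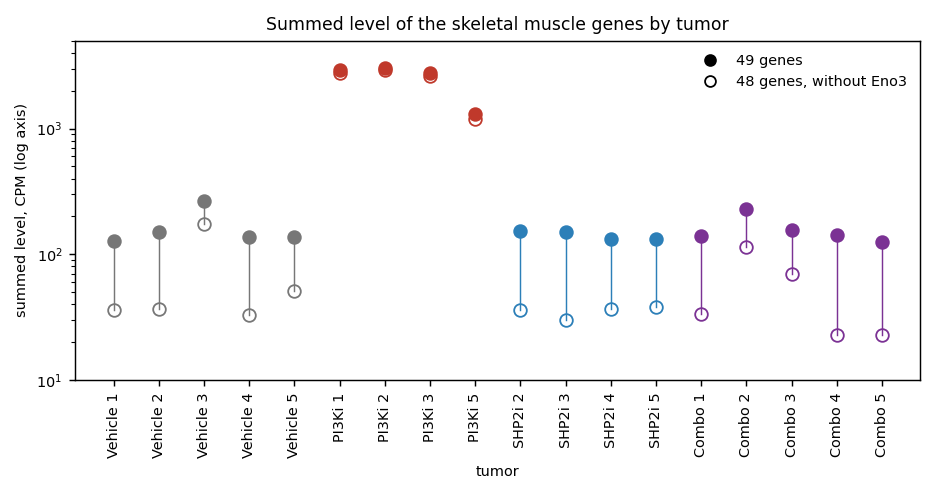
Summed level of the skeletal muscle genes in each of the 18 tumors, in CPM on a log axis. Filled circles sum all 49 genes and open circles leave out Eno3. PI3Ki tumors sit at 1312 to 3040 CPM, and outside them Vehicle replicate 3 and Combo replicate 2 are highest on both sums.

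Of the 49 genes, 41 were higher in every PI3Ki tumor than in every Vehicle tumor, a pattern that 5.16% of the 15282 genes tested had. For 37 of 49 the 4 PI3Ki tumors lay above all 14 others, against 1.33% of genes tested. Since the genes were chosen for this, nothing is read from either count. The 12 that did not separate were Myh1, Myh2, Myh7, Mybpc1, Tnnt1, Tnni1, Tnnc1, Myoz2, Casq2, Sln, Mb and Eno3, which include all 7 slow fiber genes among the 49. The difference between mean log2 CPM in PI3Ki and Vehicle (prior count 2) had a median of 4.48 over the 49 genes, with a range from 0.43 to 9.02. Its median over all genes tested was 0.0. Among PI3Ki tumors, replicate 2 held the highest value for 20 genes, replicate 3 for 19, replicate 1 for 10 and replicate 5 for 0. Among the 14 other tumors, Vehicle replicate 3 was highest for 26 genes and Combo replicate 2 for 13.

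**Figure D2:**
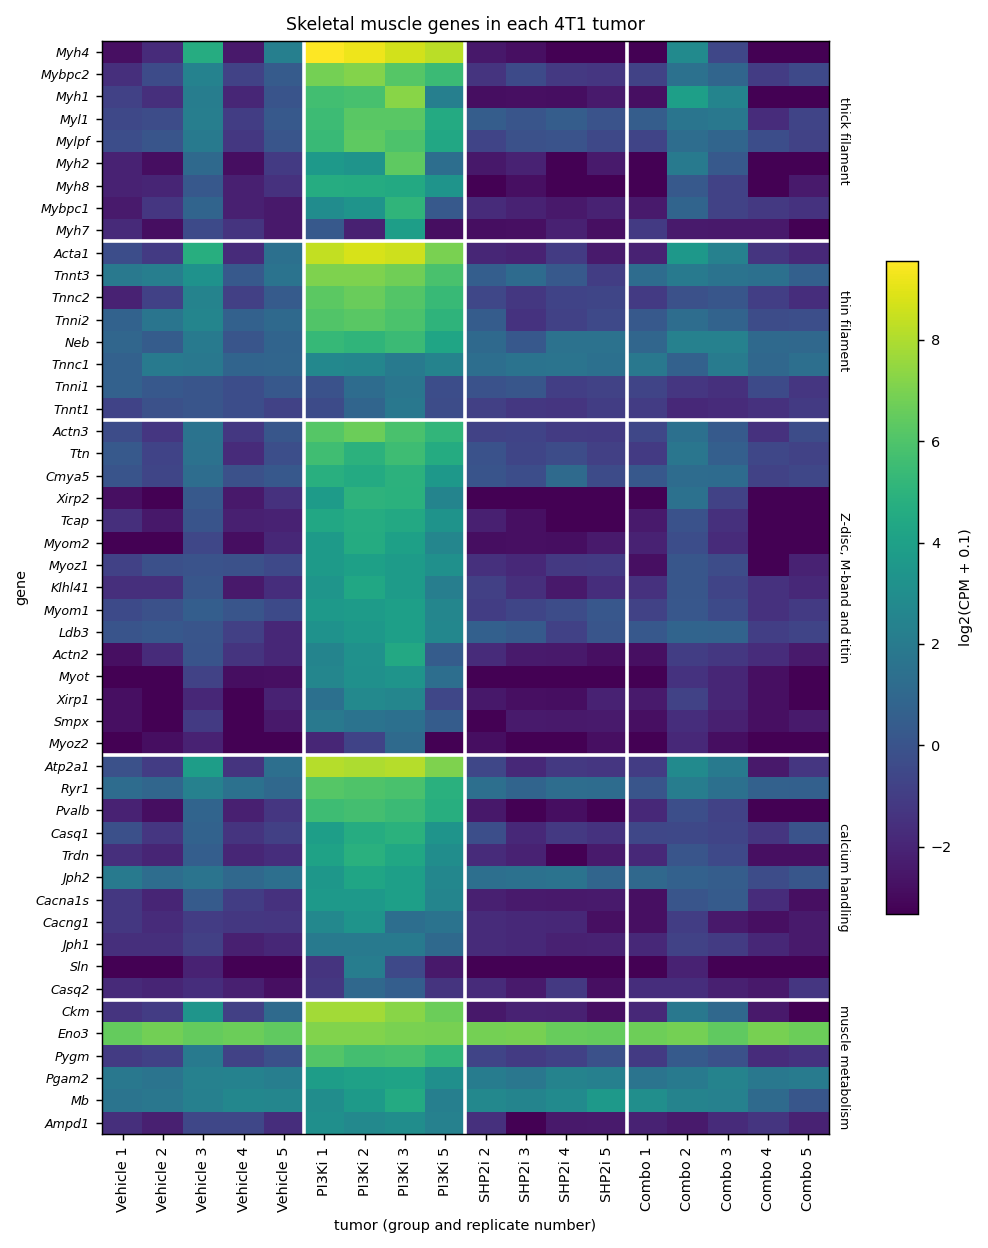
Level of each of the 49 genes (rows, grouped by role) in each tumor (columns), as log2(CPM + 0.1). The PI3Ki columns are brightest for 37 genes, Vehicle replicate 3 and Combo replicate 2 are the next brightest for many genes, and Eno3 is bright in all 18 columns.

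Of the 9 thick filament genes, 5 were above all other tumors in PI3Ki. Myh4, the heavy chain of the fastest glycolytic fibers, was at 754, 597, 406 and 299 CPM in PI3Ki replicates 1, 2, 3 and 5. In Vehicle it was at 0.0462, 0.196, 24.8, 0.082 and 4.58 CPM. In SHP2i the highest of 4 tumors was at 0.0805 CPM, and in Combo only replicate 2 (6.98 CPM) and replicate 3 (0.571 CPM) had any count. The PI3Ki tumors lay above all others, the other 3 groups overlapped each other, and Vehicle replicate 3 alone accounted for most of the Vehicle level. Myl1 and Mylpf, fast light chains that attach to the heavy chain, were at 23.3 to 76.8 CPM and 20.7 to 83.1 CPM in PI3Ki and at most 4.40 and 3.84 CPM elsewhere, both in Vehicle replicate 3. Mybpc2, fast myosin-binding protein C, was at 115, 145, 70.3 and 44.0 CPM in PI3Ki and at 0.231 to 5.15 CPM in the 14 others. The ratio of the PI3Ki mean to the Vehicle mean ranged from 15.9 to 86.5 over the 9 thick filament genes. Myh1, Myh2, Myh4 and Myh8 lie next to each other on chromosome 11 (GRCm38.p6, 67171027 to 67308634) and are related in sequence, so some reads may be split uncertainly among them.

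The make-up of the heavy chains differed between tumors. Per length, Myh4 made up 90.2, 87.6 and 95.3% of the 5 heavy chain genes in PI3Ki replicates 1, 2 and 5, but 60.5% in replicate 3. In PI3Ki replicate 3, Myh1 made up 22.6% and Myh2, the heavy chain of fast oxidative fibers, 12.3%. In counts, the Myh4 share was 59.7% there (95% Wilson interval 59.0 to 60.4%, 17992 counts) and 94.5% in PI3Ki replicate 5 (94.0 to 95.0%, 7758 counts). These intervals cover counting error only. The tumors with less muscle RNA fell into unlike kinds. Vehicle replicates 3 and 5 had Myh4 shares of 76.2 and 74.9% per length, while in Combo replicates 2 and 3 the share was 26.0 and 7.48% and Myh1 led with 57.1 and 72.3%. The Myh4 share of counts was 25.5% in Combo replicate 2 (22.2 to 29.1%, 612 counts) and 7.29% in Combo replicate 3 (4.39 to 11.9%, 192 counts). Each of the 10 remaining tumors had 21 heavy chain counts or fewer, too few for a share. These shares are values of tumors, not of treatments, and no test between groups was run on them.

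**Figure D3:**
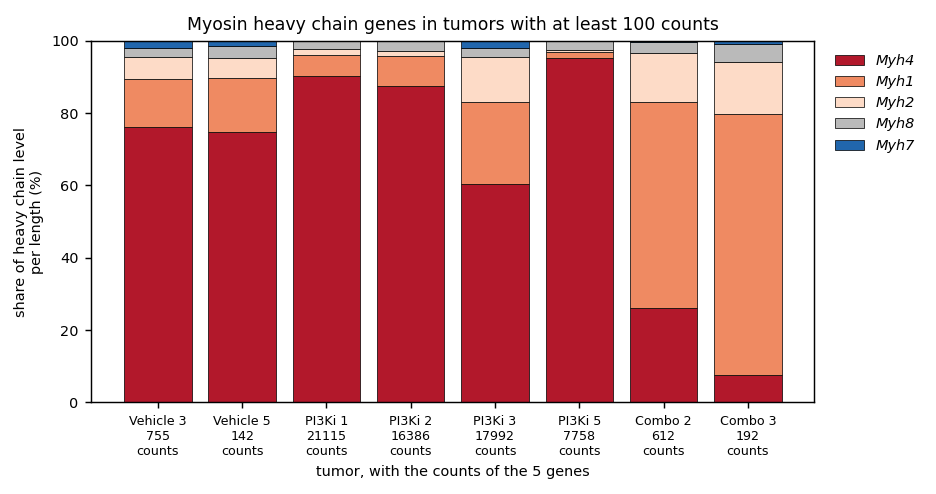
Share of each of 5 myosin heavy chain genes in their summed level per length (percent), in the 8 tumors with at least 100 heavy chain counts. Myh4 makes up 60.5 to 95.3% in PI3Ki and 26.0 and 7.48% in Combo replicates 2 and 3, where Myh1 leads.

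In the thin filament, Acta1, the actin of skeletal muscle, was at 335, 437, 376 and 123 CPM in PI3Ki. It was at 0.739, 0.352, 26.6, 0.205 and 2.57 CPM in Vehicle and at 0.0895 to 0.375 CPM in SHP2i. In Combo it was at 0.131, 11.7, 4.90, 0.302 and 0.177 CPM. The 3 tumors with more muscle RNA stood out again, each below the lowest PI3Ki tumor. Per kilobase of exon, Acta1 had the highest level in PI3Ki, 220 ± 94.4 CPM per kb (SD, n = 4), followed by Tnnc2 at 103 ± 33.9, Tnnt3 at 93.1 ± 30.3, Myh4 at 85.5 ± 33.6 and Eno3 at 83.1 ± 5.72 CPM per kb. From Tnnc2 to Eno3, neighbors in that order differed by less than the larger of their SDs. In the other groups Eno3 was first instead, at 62.0 to 68.2 CPM per kb.

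The fast troponin genes were far above their slow partners in PI3Ki tumors. Tnnt3, the fast subunit that anchors troponin to tropomyosin, was at 133, 135, 107 and 58.9 CPM, and its slow partner Tnnt1 at 0.679, 1.72, 3.48 and 0.693 CPM. Tnnc2, the fast calcium-binding subunit, was at 79.6, 98.3, 69.4 and 41.4 CPM, and slow Tnnc1 at 6.31, 5.96, 3.90 and 5.30 CPM. Tnni2, the fast inhibitory subunit, was at 67.5, 75.6, 60.1 and 32.6 CPM, and slow Tnni1 at 0.838, 2.27, 3.21 and 0.734 CPM. The slow subunits were less far from the levels of the other tumors: Tnnc1 was at 1.48 to 3.96 CPM over the 14 others, and Tnni1 in PI3Ki replicates 1 and 5 was below Vehicle replicate 1 (1.48 CPM). In PI3Ki replicates 2 and 3, however, Tnnt1 and Tnni1 lay above the other 14 tumors, whose highest values were 0.959 and 1.48 CPM. The PI3Ki mean was 1.67 times the Vehicle mean for Tnni1, 2.34 times for Tnnt1 and 2.18 times for Tnnc1, and 52.2 times for Acta1.

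Of the 15 genes of the Z-disc, M-band and titin, which hold the filaments in register, 14 were above all other tumors in PI3Ki. Actn3, the alpha-actinin of fast fibers, was at 72.6, 103, 57.1 and 35.0 CPM in PI3Ki and at most 2.92 CPM elsewhere. Tcap, a small protein that caps titin at the Z-disc, was at 21.2, 24.7, 21.7 and 9.70 CPM and at most 0.916 CPM elsewhere, both maxima in Vehicle replicate 3. Myoz1, the calcineurin-binding myozenin of fast fibers, was at 12.9, 15.8, 13.5 and 8.60 CPM, and at 0.984 CPM in Combo replicate 2, its highest value outside PI3Ki. The gene that did not separate was Myoz2, the slow myozenin, which was at 0.160, 0.504, 2.08 and 0 CPM in PI3Ki. The giant proteins had low levels per length, with 0.332 CPM per kb for Ttn and 1.44 for Neb as PI3Ki means, against 220 for Acta1.

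Of the 11 genes of calcium handling, 9 were above all other tumors in PI3Ki. Atp2a1, the pump of fast sarcoplasmic reticulum, was at 283, 251, 277 and 135 CPM in PI3Ki, at 14.1 CPM in Vehicle replicate 3 and at 7.15 CPM in Combo replicate 2. Atp2a1 overlaps Rabep2, whose counts followed it. Pvalb, a calcium buffer of fast fibers, was at 46.8, 52.7, 44.0 and 27.1 CPM in PI3Ki and at most 1.70 CPM elsewhere. Casq1, the calcium store protein of fast fibers, was at 15, 24.9, 29.9 and 9.99 CPM, while its slow and cardiac form Casq2 was at 0.319, 1.97, 1.32 and 0.285 CPM in PI3Ki and at up to 0.333 CPM in SHP2i. Sln, a peptide inhibitor of the pump, was led by PI3Ki replicate 2 at 4.28 CPM, with 0.0815 to 0.605 CPM in the other 3. Jph2, which ties the reticulum to the surface membrane, differed least of the 11 genes of this role: 11.2, 19.1, 15.5 and 6.07 CPM in PI3Ki were 4.8 times the Vehicle mean.

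The 6 metabolic genes held members of opposite kinds. Ckm, the creatine kinase that restores ATP in fibers, was at 217, 221, 153 and 102 CPM in PI3Ki, with 10.3 CPM in Vehicle replicate 3 and 3.53 CPM in Combo replicate 2 as the next tumors. Eno3 was at 139, 137, 125 and 120 CPM in PI3Ki and at 85.6 to 121 CPM in the 14 others, so the groups overlapped. Eno3 overlaps Pfn1 in the annotation, and the files do not show how shared reads were counted. Pgam2, a phosphoglycerate mutase of muscle, was at 14.4, 16.2, 17.9 and 8.40 CPM in PI3Ki and reached 5.30 CPM in Combo replicate 3. Mb, the oxygen store of oxidative fibers, was at 7.91, 13.0, 23.7 and 4.65 CPM in PI3Ki, while SHP2i replicate 5 was at 12.6 CPM. Eno3 and Mb thus had a level in tumors in which Myh4 had no count.

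The PI3Ki tumors also differed among themselves in fiber type. Of the 7 slow fiber genes, 6 were higher in PI3Ki replicate 3 than the median of the other 3 tumors, and 5 were highest there. Myh7, the heavy chain of slow fibers, was at 14.7 CPM in replicate 3 against 1.12, 0.126 and 0.0408 CPM in replicates 1, 2 and 5. Mybpc1, slow myosin-binding protein C, was at 34.8 CPM against 7.55, 10.2 and 1.10 CPM. The exception was Tnnc1, lowest in replicate 3 at 0.653 times the median of the other 3. Among fast genes, Myh2 was at 83.5 CPM in replicate 3 against 12.6, 10 and 2.40 CPM, and Myh1 at 153 CPM against 50.2, 56.5 and 4.69 CPM. The other 12 fast fiber genes there were at 0.609 to 1.99 times the median of the rest, with 7 of 14 above it in all. Over the 7 pairs together, the fast partner made up 97.5, 97.1, 94.4 and 96.1% of the level per length in PI3Ki replicates 1, 2, 3 and 5. It made up 53.4 to 80.8% in Vehicle, 34.4 to 47.1% in SHP2i and 42.2 to 80.6% in Combo, with the highest values in Vehicle replicate 3 and Combo replicate 2. Outside PI3Ki the slow side of these pairs was mostly Tnnc1, with 32 to 100 counts a tumor.

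**Figure D4:**
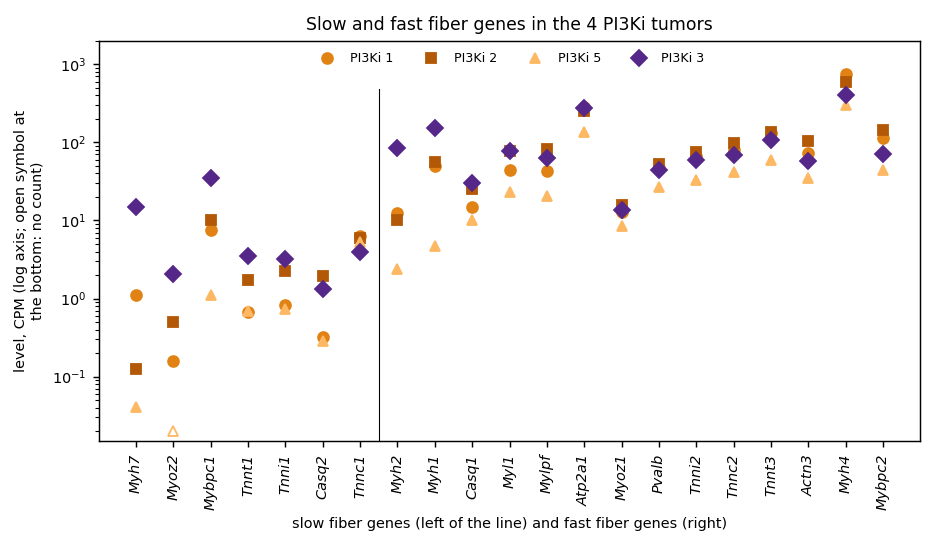
Level of 7 slow and 14 fast fiber genes in the 4 PI3Ki tumors, in CPM on a log axis. PI3Ki replicate 3 (diamonds) is highest for Myh7 at 14.7 CPM, Mybpc1 at 34.8 CPM and Myh2 at 83.5 CPM, and lies among the others for most fast genes.

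The contrast of Combo with SHP2i did not choose the genes, although both groups were among those that the PI3Ki tumors lay above and earlier results of these data were known. The comparison asks whether the muscle genes differ where PI3K inhibition is added to SHP2 inhibition. At an adjusted p under 0.05 by edgeR's quasi-likelihood test and an absolute log2 fold change over 1, 1 of 45 tested muscle genes was higher in Combo and 0 were lower. In all, 1.44% of genes tested were called higher, 3.13% lower and 4.57% in either direction, so a single call of 45 is read as near the background. Of the 29 genes that pass the filter without PI3Ki tumors, 3 had an unadjusted p under 0.05 (Myh1, Acta1 and Jph2), which is 10.3% against 36.2% of all genes tested. The median log2 fold change was 0.52 over these 29, 0.83 over the 45 and 0.03 over all genes tested. Of the 12 fast fiber genes among the 29, 12 had a positive log2 fold change (median 1.02), as had 52.9% of all genes tested. These genes move together across tumors, so nothing is read from the count of signs. Myh4 and Myh1 reached at most 0.0805 and 0.0895 CPM in SHP2i, so they passed the filter through other tumors, where they were higher. Only Myh1 of the 12 passed the test. Of the 3 slow fiber genes among the 29, 0 had a positive log2 fold change (median -0.39). The summed level of the fast fiber genes was 7.83, 53.3, 26.5, 5.74 and 6.07 CPM in Combo replicates 1 to 5 and 4.83 to 7.56 CPM in SHP2i, so that replicates 2 and 3 stood apart and the other 3 lay at about the SHP2i level. The called gene, Myh1, was at 0.0438, 15.5, 5.59, 0 and 0 CPM in Combo and at 0.0402, 0.0456, 0.0417 and 0.0895 CPM in SHP2i. The groups overlapped, and Combo replicates 2 and 3 held 347 and 137 of its counts, against 1, 1, 1 and 2 in the SHP2i tumors. Its log2 fold change was 6.16 ± 2.11 (SE) at an adjusted p of 0.0448. Without Combo replicate 2 it was 4.61 at an adjusted p of 0.131, and without Combo replicate 3 it was 6.04 at 0.0582. The call was also lost without any 1 of the 4 SHP2i tumors (adjusted p = 0.0876 to 0.105), without Vehicle replicate 1, 2 or 5 (0.0505 to 0.0532) and without PI3Ki replicate 1 (0.051).

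No member separated Combo from SHP2i in every tumor, while 9.86% of genes tested were above and 7.26% below in all Combo tumors. Acta1 had a log2 fold change of 4.12 ± 1.89 (adjusted p = 0.124 by edgeR), with 11.7 CPM in Combo replicate 2 and 4.90 CPM in replicate 3 against at most 0.375 CPM in the rest. Xirp2, an actin-binding repeat protein of the Z-disc, had 73 counts in Combo, led by 2.73 CPM in replicate 2, and 0 counts in SHP2i. Against a floor of 3 counts over the SHP2i group, it was at least 18.71-fold higher, but 61 of the 73 counts were in replicate 2, without which the bound was 3.81-fold. Xirp2 passes the filter only through the PI3Ki tumors. Eno3 had a log2 fold change of -0.01 ± 0.109 (adjusted p = 0.943). Jph2 passed the p but not the fold limit, at -0.95 ± 0.324 (adjusted p = 0.0432), and went the opposite way from the heavy chains.

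The 2 comparisons with Vehicle share the Vehicle tumors, which were also the reference for choosing the genes, and their values are set side by side. In SHP2i, 0 of 45 were higher and 2 were lower, with 0.641% and 3.1% of genes tested called in these directions and 3.74% in either. In Combo, 0 of 45 were higher and 4 were lower, with 3.99% and 6.86% of genes tested called and 10.9% in either direction. Neither count of lower genes is far from its background. Of the 29 genes that pass the filter without PI3Ki tumors, 8 had an unadjusted p under 0.05 in SHP2i (27.6%, against 29.3% of all genes tested) and 4 in Combo (13.8%, against 51.1%). The median log2 fold change over these 29 was -0.77 in SHP2i and -0.32 in Combo, beside 0.02 over all genes tested in each. Over the 12 fast fiber genes among them it was -1.71 in SHP2i, where 0 were positive and 2 were called, and -0.48 in Combo, where 3 were positive and 1 was called. The summed level of the fast fiber genes was 10.4, 12.6, 86.2, 6.40 and 20.1 CPM in Vehicle replicates 1 to 5. In SHP2i it was 4.83 to 7.56 CPM, so Vehicle replicate 3 stood apart and replicate 4 lay within the SHP2i range. These genes move together across tumors, so nothing is read from the counts of signs. Over the 3 slow fiber genes among the 29 the median was -0.61 in SHP2i and -1.32 in Combo, with 1 positive in each. Of all genes tested, 53.0% were positive in SHP2i and 52.1% in Combo.

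Both genes called lower in SHP2i were fast troponin genes, which lie close together on chromosome 7 (GRCm38.p6, Tnni2 from 142441816 to 142444410 and Tnnt3 from 142498771 to 142516213). Tnni2 was at 1.57, 3.09, 5.67, 1.48 and 2.05 CPM in Vehicle and at 1.25, 0.274, 0.458 and 0.627 CPM in SHP2i, without overlap. Its log2 fold change was -2.06 ± 0.502 (adjusted p = 0.0139), and the call held with each tumor left out in turn (-2.61 to -1.63). Tnnt3 was at 3.60, 4.46, 9.37, 1.11 and 2.92 CPM in Vehicle and at 1.33, 2.14, 1.12 and 0.403 CPM in SHP2i. Its groups overlapped through Vehicle replicate 4, and its log2 fold change was -1.78 ± 0.514 (adjusted p = 0.0333). The call was lost without Vehicle replicate 2 or 3 (adjusted p = 0.0668 and 0.0994) and without SHP2i replicate 2, 4 or 5 (0.0708, 0.0827 and 0.0988). Tnnt3 overlaps Prr33, so part of its count may belong to that gene. For 7 of 45 tested members every SHP2i tumor was below every Vehicle tumor, a pattern of 10.5% of genes tested. They were Myh1, Myh8, Tnnt1, Tnni2, Myoz1, Cacna1s and Ckm. Of these, Myh8 and Cacna1s pass the filter only through the PI3Ki tumors, and nothing is read from the count. Ckm was at 0.0448 to 0.137 CPM in SHP2i and at 0.277 to 10.3 CPM in Vehicle, with a log2 fold change of -4.72 (adjusted p = 0.0566).

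In Combo the 4 lower genes were the slow troponin genes Tnni1 and Tnnt1, the fast Tnni2, and Jph2. Tnni1 was at 1.48, 1.06, 0.959, 0.738 and 1.05 CPM in Vehicle and at 0.525, 0.313, 0.245, 0.648 and 0.310 CPM in Combo, without overlap. It fell by 1.36 ± 0.425 on the log2 scale (adjusted p = 0.0159), and the call held with each tumor left out. Tnnt1 was at 0.508, 0.821, 0.959, 0.738 and 0.480 CPM in Vehicle and at 0.394, 0.179, 0.204, 0.259 and 0.354 CPM in Combo. It fell by 1.32 ± 0.444 (adjusted p = 0.0228), and this was lost without Vehicle replicate 3 (0.0553) or Combo replicate 2 (0.0535). Combo replicate 2, the Combo tumor with the highest fast muscle genes, had the lowest Tnnt1 of the 10. Jph2 was at 3.69, 2.35, 3.05, 1.93 and 2.49 CPM in Vehicle and at 1.93, 1.48, 1.31, 0.691 and 0.974 CPM in Combo. Its groups did not overlap and met at 1.93 CPM only by rounding. Jph2 fell by 1.08 ± 0.308 (adjusted p = 0.00945). Without Vehicle replicate 1 or Combo replicate 4 or 5 the fold change was -0.96, -0.92 or -1.0, so that the fold limit was missed. For 3 of 45 tested members, Tnni1, Tnnt1 and Jph2, every Combo tumor was below every Vehicle tumor, a pattern of 13.4% of genes tested. Tnni2 was at 1.09, 2.33, 1.63, 0.691 and 0.753 CPM in Combo, overlapping Vehicle, with a log2 fold change of -1.09 ± 0.429 (adjusted p = 0.0483). Its call was lost without any 1 of Vehicle replicates 2 and 3, PI3Ki replicates 1 and 3, SHP2i replicates 4 and 5, and Combo replicates 1, 3, 4 and 5 (adjusted p up to 0.202).

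**Figure D5:**
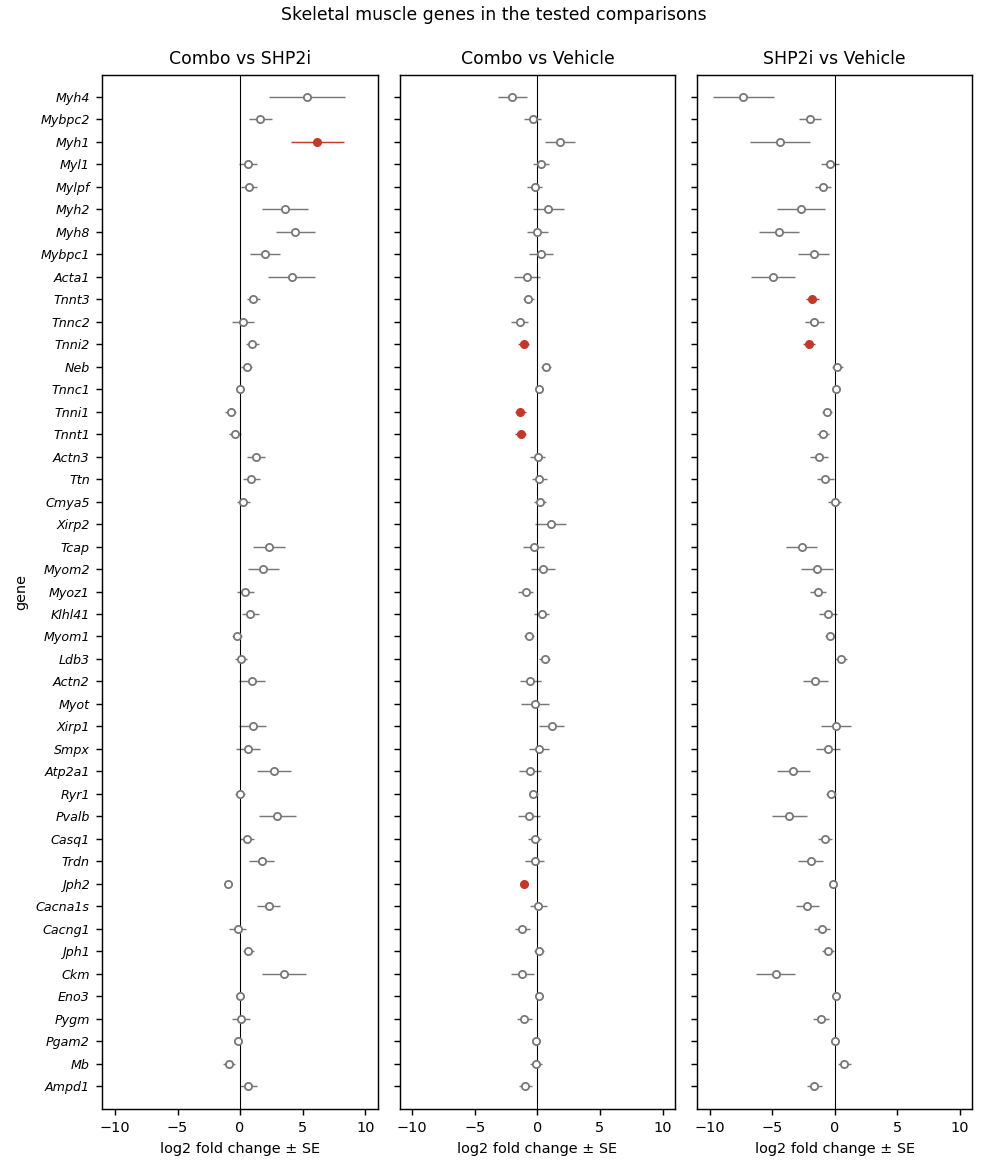
Log2 fold change with its standard error for the 45 tested muscle genes in 3 comparisons, from the edgeR fit. Filled red points are the 1, 4 and 2 genes called in Combo against SHP2i, Combo against Vehicle and SHP2i against Vehicle, and Xirp2 and Myot are left out where SHP2i is at 0. The bars of Myh4 and Myh1, which rest on few tumors, are wider than those of Eno3.

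Muscle genes outside the 49, from lists written with earlier results of these data known, followed PI3Ki tumors only in some classes. The 4 PI3Ki tumors were above all 14 others for 17 of 30 other contractile and structural genes, 10 of 18 genes of excitation and the neuromuscular junction, and 8 of 16 energy genes (1.33% of genes tested). Des, the desmin filament of muscle cells, was at 48.7 to 232 CPM in PI3Ki and at 2.75 to 12.9 CPM elsewhere. Tpm2, a tropomyosin of striated and smooth muscle, was at 38.5 to 94.4 CPM against at most 18 CPM in Vehicle. Srl, the calcium-binding sarcalumenin, was at 9.37 to 22.5 CPM against 3.09 to 4.71 CPM in Vehicle. Aldoa, the aldolase of most tissues, was at 1246 to 1787 CPM in PI3Ki and at 1197 to 1323 CPM in Vehicle, so these overlapped.

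Regulators of muscle formation summed to 55.8 to 73.2 CPM in Vehicle, 59.3 to 68.0 in PI3Ki, 56.9 to 68.1 in SHP2i and 51.7 to 75.5 in Combo. Genes of embryonic and regenerating fibers summed to 55.6 to 80.6, 51.1 to 73.6, 39.9 to 70.3 and 43.0 to 99.8 CPM in the same order. Both ranges in PI3Ki overlapped those of the other groups. Only 2 of the 9 regulators and 5 of the 9 embryonic and regenerating genes had enough counts to be tested. Each sum thus says little about the rest of its list. Of 9 regulators, 1 was above all other tumors in PI3Ki: Myf6, the regulator that persists in adult fibers, at 0.245 to 3.11 CPM against at most 0.0872 CPM. Myog was at 0 CPM in all Vehicle and SHP2i tumors and reached 2.10 CPM in a PI3Ki tumor. Of 9 genes of embryonic and regenerating fibers, 0 separated, and the embryonic heavy chain Myh3 was at 0.0799 to 0.588 CPM in PI3Ki. Among 9 genes of muscle atrophy, 1 separated, Trim63, a ubiquitin ligase that targets thick filament proteins. It was at 2.16 to 16.4 CPM in PI3Ki, 0 to 0.262 CPM in Vehicle, 0 to 0.0456 CPM in SHP2i and 0.179 to 1.51 CPM in Combo. Fbxo32, another ligase of atrophy that other tissues also express, was at 36.7 to 45.0 CPM in PI3Ki, 14 to 30.8 CPM in Vehicle, 14.8 to 22.7 CPM in SHP2i and 37.2 to 72.3 CPM in Combo. Both were named after their values were seen, and no test of either gene alone is given. The counts that follow run over the whole list, which holds both. Of the 9 listed atrophy genes, 4 were called higher in Combo against Vehicle, beside 3.99% of all genes tested. In Combo against SHP2i 2 were called higher, beside 1.44%. In both comparisons 0 were called lower, and in SHP2i against Vehicle 0 were called in either direction. The list was written with earlier results of these data known. Its summed level was 428 to 557 CPM in Vehicle, 527 to 830 in PI3Ki, 545 to 698 in SHP2i and 697 to 926 in Combo. The muscle genes chosen for their PI3Ki levels, without Eno3, summed to only 22.5 to 113 CPM in Combo. The list was thus high in tumors with little muscle RNA, and its calls are not read as a change in muscle. Which cells they come from was not tested.

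Of 61 tested muscle genes outside the 49, apart from the atrophy list, 1 was called higher and 3 lower in Combo against SHP2i, beside 1.44% and 3.13% of all genes tested. The higher gene was Scn4a, the sodium channel of muscle fibers, with a log2 fold change of 5.20 (adjusted p = 0.0176 by edgeR). It was at 0.044, 0.179, 1.18, 9.46 and 0 CPM in Combo replicates 1 to 5 and at most 0.137 CPM in SHP2i, so replicate 4 carried the difference, a tumor with low levels of the 49 genes. Without Combo replicate 4 the log2 fold change was 2.64 at an adjusted p of 0.0931, and without SHP2i replicate 2 or 4 the adjusted p was 0.0537 or 0.052. The lower genes were Unc45b, a myosin chaperone (-1.08, adjusted p = 0.00204), Pdlim3, a Z-disc protein (-1.67, adjusted p = 0.0303), and Cdh15, a cadherin of muscle precursors (-2.45, adjusted p = 0.0015). Pdlim3 missed the threshold without Combo replicate 4 or 5 (adjusted p = 0.0719 and 0.0672) and without SHP2i replicate 2, 3 or 5 (0.0985, 0.0535 and 0.0775). Unc45b missed the fold limit without Combo replicate 4 (-0.98) or SHP2i replicate 4 (-0.99). The median over the 61 was 0.07.

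Markers of other tissues near a mammary tumor were read in the same tumors. None of the 12 cardiac markers put the 4 PI3Ki tumors above all others, but their summed level was higher in each PI3Ki tumor (11.5 to 24.3 CPM) than in the 14 others (5.62 to 11.3 CPM). The tested cardiac markers had a median log2 fold change of 0.43 in PI3Ki against Vehicle, given with no test. The atrial genes Myl7 and Bmp10 were at or below 0.042 and at 0 CPM in PI3Ki. They do not stand for the list, in which 1 of 12 had no count in any tumor. Of 10 smooth muscle markers, 1 put the 4 PI3Ki tumors above all others, Des, which skeletal muscle also expresses. Their sum was 314 to 754 CPM in PI3Ki, 225 to 322 CPM in Vehicle, 235 to 269 CPM in SHP2i and 147 to 204 CPM in Combo. Of 7 tendon markers 0 did, with a sum of 160 CPM in PI3Ki replicate 2 against 36.5 to 65.4 CPM in the other 17 tumors. Thbs4, an extracellular protein of tendon and muscle, and Fmod, a matrix proteoglycan, led that tumor with 81.2 and 49.1 CPM. Of 12 adipocyte markers 0 did, and their sum was 428 to 1042 CPM in PI3Ki and 485 to 943 CPM in Vehicle. The highest adipocyte sums among Combo tumors, 1491 and 2439 CPM, were in replicates 2 and 3, the Combo tumors with the most muscle RNA. The other groups did not follow this order. Vehicle replicate 3, the Vehicle tumor with the most muscle RNA, was at 495 CPM. PI3Ki replicate 5, with the least muscle RNA of its group, had the highest sum there, 1042 CPM. The SHP2i tumors were at 974 to 1324 CPM. The 7 B cell markers were at a sum of 1.84, 6.51, 56.5 and 160 CPM in PI3Ki replicates 1, 2, 3 and 5, in another order than the muscle genes. Markers of brown fat, skin, Schwann cells, mammary secretion, endothelium and carcinoma epithelium likewise put PI3Ki above all others for 0 genes. The part of these tissues in the muscle values was not tested.

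Across the 18 tumors, the genes outside the 49 whose log2 CPM was most like the mean of the tested members were Hjv, a coreceptor of iron control in muscle and liver (Pearson r = 0.988), Sypl2, a protein of the triad junction (0.988), A930016O22Rik (0.987), Art1 (0.983), Nrap (0.98), Eef1a2, an elongation factor of muscle and nerve (0.98), Klhl31 (0.974), Rabep2 (0.973), Mypn, a Z-disc protein (0.97), and Klhl40 (0.969). A930016O22Rik overlaps Ckm and Rabep2 overlaps Atp2a1. The 18 points share 4 groups, and the 4 PI3Ki tumors set most of each value, so no p is given. Within the 49, the correlation with the mean of the other tested members was highest for Myot, a Z-disc protein, at 0.992, and lowest for Mb at 0.526, Tnni1 at 0.537, Eno3 at 0.564, Myh7 at 0.60 and Tnnc1 at 0.673.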

How the data were processed

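RNA of 18 tumors was measured, and samples were grouped by the treatment in their labels. The authors deposited raw counts, whole numbers for each gene, made by trimming paired-end reads of directional poly(A) libraries with cutadapt, aligning them with STAR to GRCm38 and counting with qCount of QuasR. The submitters' processing notes also name hg19. The gene annotation, tool versions, strand setting and counting of read pairs are not given in the sources used here.

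Symbols and positions came from a RefSeq table of GRCm38.p6, which matched 22760 of 22792 identifiers (the 32 others carried 0.0193% of counts), and lengths from the union of GENCODE exons. Genes were filtered with filterByExpr (minimum count 10, total 15), which left 15282, scaled by TMM and fitted with edgeR 4.0.16 in R 4.3.3, with 1 mean per group over all 18 tumors. Genes were called by the quasi-likelihood F test at a Benjamini-Hochberg adjusted p under 0.05 over all genes tested and a log2 fold change beyond 1 in either direction. The SE beside a fold change was derived from it and F (log2 fold change over root F). No low-count filter applies to levels. The fit was tested on simulated counts with known changes in genes drawn from all genes, which gives no recovery for muscle genes.

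The members and gene lists were chosen with earlier results of these data known. The genes named are the 3 members with the highest level per length in each role, both partners of each fast and slow pair, members called in a test (up to 5 by p), members in which PI3Ki tumors did not lie above all others, leading genes of each list and the 10 genes most like the members. Others are given in ranges, as ends of a range or, like Trim63, after their values were seen. Alternatives were DESeq2 1.42.0, other scaling and filters, the compared groups alone, no fold limit, a block for the replicate number, and each tumor left out. A fit without PI3Ki tumors and sums without Eno3 were added after seeing the data.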

Additional observations from a re-analysis of the deposited data

Results flagged for a closer look

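In groups of 4 or 5 tumors, the gap between the highest or lowest tumor and its nearest neighbor was divided by the group's range. A tumor was marked where this ratio exceeded Dixon's 95% critical value for that number of tumors. Of 124 groups tested over 31 items, 29 were marked. Chance marks about 1 in 20 groups where values are normally distributed, which was not checked for these levels. The items share tumors and are not independent. Vehicle replicate 3 was marked 16 times and Combo replicate 2 was marked 5 times, each time as the highest of its group.

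Vehicle replicate 3 stood above the other 4 Vehicle tumors for the summed level (265 CPM), for the thick filament genes Myh4 (24.8 CPM), Myh1 (4.36 CPM), Myh2 (2.05 CPM), Mybpc2 (5.15 CPM), Mybpc1 (1.70 CPM), Myl1 (4.40 CPM) and Mylpf (3.84 CPM), and for Acta1 (26.6 CPM) and Tnnc2 (5.36 CPM). It also stood out for Actn3 (2.92 CPM), Tcap (0.916 CPM), Atp2a1 (14.1 CPM), Pvalb (1.70 CPM), Ckm (10.3 CPM) and Sln (0.131 CPM). Combo replicate 2 stood above the other Combo tumors for Myh4 (6.98 CPM), Mybpc1 (1.65 CPM), Tcap (0.850 CPM), Myoz2 (0.179 CPM) and Sln (0.134 CPM). Among PI3Ki tumors, replicate 3 was apart for Myh2 (83.5 CPM) and Myh7 (14.7 CPM), replicate 2 for Sln (4.28 CPM) and replicate 5, the lowest, for the summed level (1312 CPM). Marks at a few counts were SHP2i replicate 5 for Myh1 (0.0895 CPM), SHP2i replicate 4 for Myh7 (0.125 CPM), SHP2i replicate 3 for Mybpc2 (0.639 CPM) and Combo replicate 1 for Myh7 (0.350 CPM).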

How the results depend on the processing

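In Combo against SHP2i, the count of muscle genes called higher was 1, and it became 7 with DESeq2 (Acta1, Cacna1s, Ckm, Myh1, Myh4, Myh8 and Xirp2), 2 with the replicate block, and 0 without a low-count filter or with the compared groups alone. The count called lower was 0, and 1 (Jph2) with the replicate block or with no minimum fold change. Other muscle genes called higher were 1, and 3 with DESeq2, 2 with the replicate block, 0 with the compared groups alone and 4 with no minimum fold change. In SHP2i against Vehicle, 2 were lower, and 11 with DESeq2. Of the genes added by DESeq2 in these 2 comparisons, Cacna1s, Myh8, Xirp2, Ampd1 and Pvalb pass the filter only through the PI3Ki tumors. In Combo against Vehicle the counts stayed within 1.5 times under these settings. The causes were not tested. The share of all genes called was not taken under these settings or with a tumor left out, so nothing is read from these counts. The labels do not say whether the replicate numbers pair the tumors. Of 24 same-numbered pairs, 8 had a correlation over 0.1 (range -0.42 to 0.326), and 4 of 18 tumors correlated best with their own number. Such correlations cannot show whether the tumors were paired by design. The replicate block changed no other call.

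Leaving out each tumor in turn gave 0 to 3 higher and 0 to 1 lower muscle genes and 0 to 3 higher and 1 to 4 lower other muscle genes in Combo against SHP2i. It gave 0 to 1 higher and 2 to 7 lower in Combo against Vehicle (1 higher, Neb, without Vehicle replicate 3, and 7 lower without Combo replicate 2), and 0 higher and 1 to 5 lower in SHP2i against Vehicle (5 without Combo replicate 2, 1 without Vehicle replicate 2 or 3 or SHP2i replicate 4 or 5, and 4 without Vehicle replicate 1 or 4). The median difference between PI3Ki and Vehicle in log2 CPM ranged from 4.34 to 5.11. Medians of the summed level were 136 to 144 CPM in Vehicle, 2748 to 2901 in PI3Ki, 132 to 151 in SHP2i and 141 to 149 in Combo, and median fast shares were 58.6 to 65.5%, 96.1 to 97.1%, 36.0 to 37.3% and 47.7 to 55.2%. Without Eno3 the median sums were 36.4 CPM in Vehicle, 36.0 in SHP2i and 33.6 in Combo, and without division by length the median fast share was 98.2% in PI3Ki and 44.8% in SHP2i. Without the PI3Ki tumors, Tnni2 in Combo against Vehicle missed the threshold (adjusted p = 0.0636), as it did with the compared groups alone (0.0677). In SHP2i many fiber genes rest on a few counts a tumor (Myh4 and Myh1 on 2 counts or fewer), where a difference downwards is hardly detectable at this depth.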
